A study of Mus musculus with 7 samples.

Results

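The regions described here are stretches of chromatin that were open in mouse embryonic fibroblasts (MEFs) on day 0 and in which no peak was called at any later point of reprogramming. Touching or overlapping ATAC-seq peaks of all 7 libraries were merged into 104346 regions, and a region was selected on its peaks alone: a day 0 peak 300 bp or wider and no peak on days 1, 2, 3, 6 or 9 or in embryonic stem cells (ESCs). This gave 9031 member regions of the 34241 with a day 0 peak of that width, which is 26.4%. Because the selection used the peaks of every library, that share and the absence of later peaks describe the choice and are no finding.

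Each library was made from 50000 cells by cutting nuclei with Tn5 transposase, which inserts into open chromatin, and sequencing the released fragments. The MEFs came from a cross of a B6;129S4 strain with the allele Col1a1tm1(tetO-Pou5f1,-Klf4,-Sox2,-Myc)Hoch and a B6.Cg strain with the allele Gt(ROSA)26Sortm1(rtTA*M2)Jae. All MEF libraries, day 0 included, thus carried an OKSM cassette in the *Col1a1* locus that the rtTA protein switches on when doxycycline is added. Day 0 MEFs and ESCs were untreated, and the libraries of days 1, 2, 3, 6 and 9 came from MEFs given doxycycline at 2 µg/mL, with 1 library for each. The ESCs are of the Bruce-4 line, yet their label lists the MEF genotype too. MEFs were prepared from whole embryos without head, heart and liver and are therefore a mixed population. The serum share was 10% in MEF medium, 15% in reprogramming medium and 20% in ESC medium, so the effects of the OKSM factors, doxycycline and serum cannot be told apart. With single libraries no test between time-points was possible, and in bulk chromatin fewer cells of a type and less accessibility per cell cannot be told apart either.

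Open chromatin is found at promoters and at distal elements such as enhancers. Promoters of widely used genes are often rich in CpG and open in most cell types, whereas enhancers are spread through introns and intergenic DNA and differ between cell types. Fibroblast enhancers are known as binding sites of AP-1 (Fos and Jun dimers), Tead, Runx and Cebp proteins, and the early closing of somatic enhancers is a known step of reprogramming by Oct4, Klf4, Sox2 and Myc.

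The sequences below are the central 200 bp of day 0 peaks, read from the plus strand of the mm10 genome. Shown are the widest members that hold AP-1 and each of the 4 other motifs with the highest shares among those found in more members than regions kept through day 9, with the match in capitals. Windows with annotated UTR bases were passed over. *Socs5* lies 66800 bp from the first region (chr17:87174930-87175129, intergenic), whose capitals mark the AP-1 motif TGAGTCA on the minus strand. The *Cavin2* region (chr1:51125920-51126119, in an annotated intron, 162627 bp from the *Cavin2* TSS) holds the Tead motif GGAATG, also on the minus strand. The *Slc15a3* region (chr19:10842017-10842216) covers the sequence upstream of a TSS and holds the Twist-type E-box CAGATG on the minus strand. The *Gm13547* region (chr2:29772056-29772255, in an intron of another gene) holds the Cebp motif TTGCNNAA, and the *Piezo1* region (chr8:122556334-122556533, upstream of the gene, in another gene's intron) holds the Runx motif TGTGGTT on the minus strand.
Socs5: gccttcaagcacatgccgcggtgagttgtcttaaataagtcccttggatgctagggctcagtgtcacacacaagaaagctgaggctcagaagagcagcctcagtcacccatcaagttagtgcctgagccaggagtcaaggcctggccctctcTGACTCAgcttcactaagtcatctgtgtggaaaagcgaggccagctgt
Cavin2: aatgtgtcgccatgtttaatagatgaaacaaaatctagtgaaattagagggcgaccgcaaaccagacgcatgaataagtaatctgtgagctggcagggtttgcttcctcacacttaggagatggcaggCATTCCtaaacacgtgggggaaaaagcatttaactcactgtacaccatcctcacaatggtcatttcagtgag
Slc15a3: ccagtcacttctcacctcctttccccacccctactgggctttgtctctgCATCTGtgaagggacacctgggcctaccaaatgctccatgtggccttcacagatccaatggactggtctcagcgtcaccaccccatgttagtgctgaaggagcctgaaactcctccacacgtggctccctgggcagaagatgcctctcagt
Gm13547: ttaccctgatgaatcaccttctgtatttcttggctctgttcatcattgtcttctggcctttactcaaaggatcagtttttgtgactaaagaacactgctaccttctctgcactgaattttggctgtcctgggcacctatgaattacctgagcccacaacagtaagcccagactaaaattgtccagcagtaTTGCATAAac
Piezo1: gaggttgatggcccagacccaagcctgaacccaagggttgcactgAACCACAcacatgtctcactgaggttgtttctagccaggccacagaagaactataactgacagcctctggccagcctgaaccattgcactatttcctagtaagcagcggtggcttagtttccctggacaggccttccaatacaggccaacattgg

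The day 0 library had the most peaks of the series, and the members were the largest group of regions open in a single library. The peak lists held 61241 peaks on day 0 and between 27074 and 48087 in the other libraries. Of the regions with a peak of 300 bp or wider in a library, those found in that library alone numbered 158 (day 2) to 989 (day 1) in the doxycycline-treated cells, or 0.832% to 3.76% of the library's regions. In ESCs they numbered 5269, or 31.8%. Single-library regions were thus frequent at the 2 ends of the course and rare between them. The 5 libraries between were all of treated MEFs and can share peaks with one another, and the lists differed in length. The pattern therefore depends on which libraries were made and is given as a description. When each library was reduced to its 27074 widest peaks, an alternative chosen after seeing the data, 7610 members were left. The files give no read numbers, so a missing peak means that none was called, not that the site was closed.

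**Figure D1:**
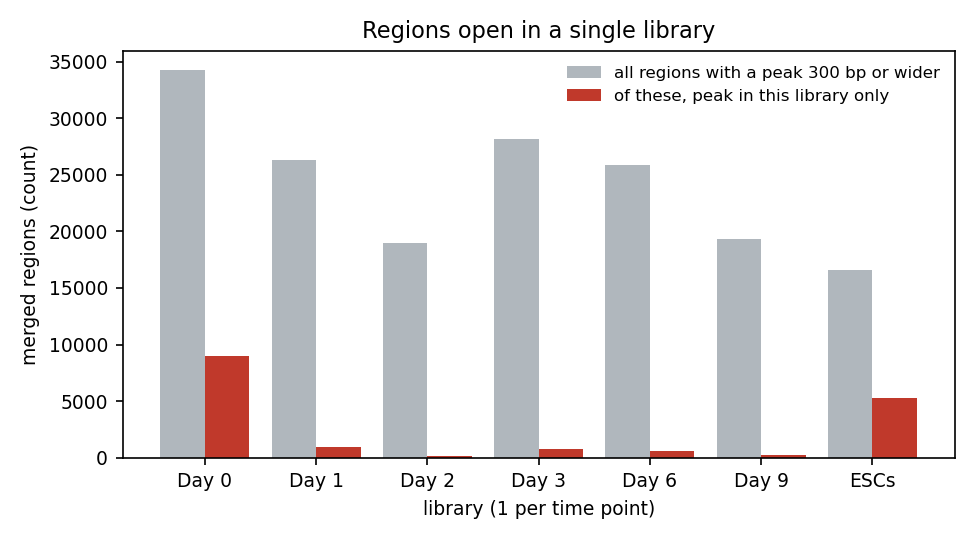
Merged regions with a peak 300 bp or wider in each library (grey bars, count) and those of them with a peak in that library only (red bars). The 9031 members are the red bar of day 0, which is higher than the 5269 regions open in ESCs alone and the 158 to 989 of the libraries between.

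Of the 12873 day 0 regions without a day 1 peak, 9031 (70.2%) were members and the other 3842 had a peak again in at least 1 later library. Of these, 2411 had a day 3 peak, 2227 a day 6 peak and 549 an ESC peak, counts that are not comparable between libraries because their lists held 48087, 44855 and 27074 peaks. Just outside the rule lay 3096 regions with a peak in exactly 1 later library, of which 1266 had it on day 1.

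The width limit fell within a continuous distribution. There were 34 members exactly 300 bp wide, and 39 regions 1 bp narrower were open on day 0 alone but were left out. In the 10 bp steps on each side of the limit there were 347 members and 397 regions left out. In all, 15899 day 0-only regions, or 63.8% of 24930, were narrower than 300 bp. Every member held a single day 0 peak.

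Members were narrower than the regions that stayed open. Their median width was 478 bp (quartiles 397 and 544 bp), compared with 545 bp for the 2606 regions lost between days 1 and 6 (day 1 peak, none on days 6 and 9 or in ESCs) and 669 bp for the 14010 regions kept through day 9 (a peak on each of days 1, 2, 3, 6 and 9). Members made up 51.6% of the day 0 regions from 300 to under 400 bp (95% interval 50.1 to 53.03%, exact binomial as for all shares). They made up 47.0% from 400 to under 500 bp, 29.3% from 500 to under 600 bp and 6.75% of the wider ones, so the share was lower at each step in width. The rule itself used the width, and a wider peak has more room to overlap a later one. These widths are therefore given as a description of the selection.

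Members lay mainly in introns and between genes, away from TSSs. Of the 9027 members on chromosomes 1 to 19, X and Y, 950 (10.5%, interval 9.90 to 11.2%) were within 1000 bp of a TSS, compared with 12.4% (11.1 to 13.7%) of the regions lost between days 1 and 6 and 69.2% (68.4 to 69.9%) of the kept regions. Introns held 46.0% of the members and intergenic DNA 40.4%, close to the 45.2% and 39.1% of the regions lost between days 1 and 6, compared with 31.1% and 27.6% of all day 0 regions and 14.9% and 14.5% of the kept regions. Coding exons held 58 members (0.642%), compared with 0.541% of all day 0 regions. Members over 50 kb from a TSS made up 14.4%, compared with 13.9% of the regions lost between days 1 and 6 and 2.87% of kept regions. The median distance of a member to the nearest protein-coding TSS was 33700 bp, and that of a region lost between days 1 and 6 was 32002 bp.

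**Figure D2:**
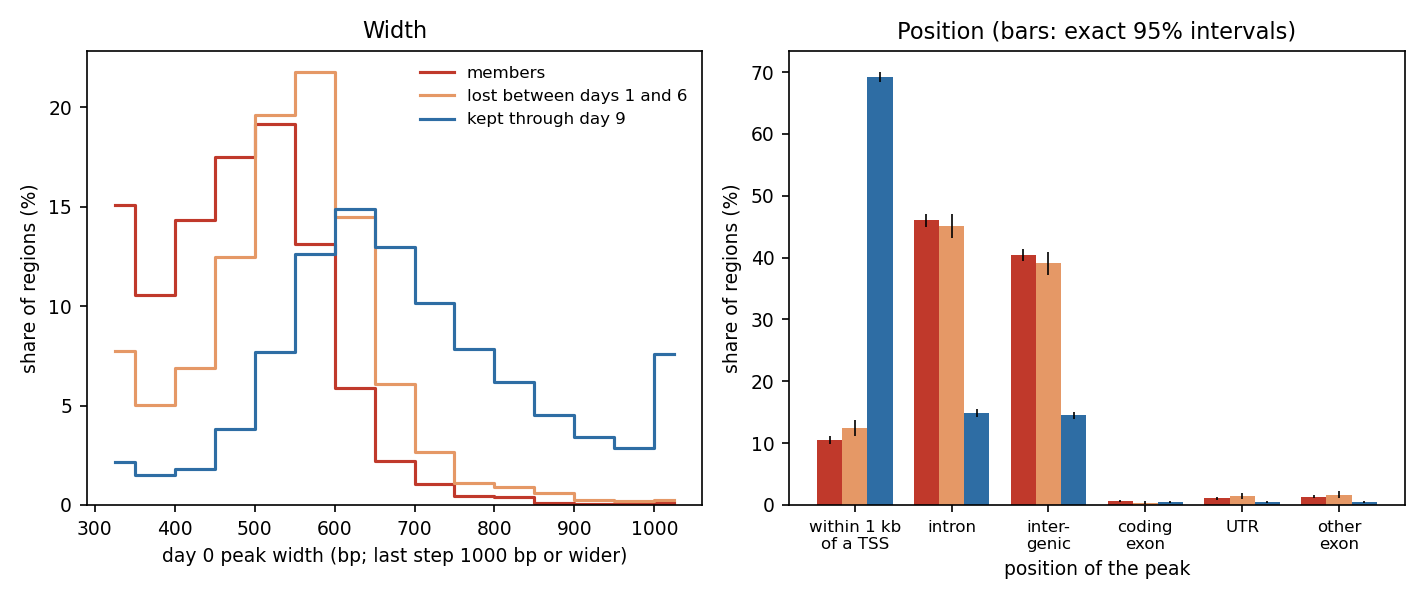
Left, share of regions (%) in steps of day 0 peak width (bp) for members (red), regions lost between days 1 and 6 (orange) and regions kept through day 9 (blue). Right, share of the same classes (%, same colours) by position of the peak, with exact 95% intervals. Members peak at smaller widths than kept regions, width being part of the selection. Of the members 10.5% lie within 1000 bp of a TSS against 69.2% of kept regions.

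The members were also poorer in GC and CpG. The median GC content of the central 200 bp was 46.5% in members, 47.0% in regions lost between days 1 and 6 and 62.0% in kept regions. The median number of CpG dinucleotides was 2 in members and 13 in kept regions, and 16.6% of members had none, compared with 2.64% of kept regions. The regions lost between days 1 and 6 were like the members, with a median of 2 and 14.75% without any, and the median of all distal day 0 regions was also 2. The GC gap was smaller among regions over 1000 bp from a TSS, called distal here, where the median GC content was 46.0% in the 8077 distal members and 51.5% in the 4315 distal kept regions. Repeat-masked letters covered at least 50% of the window in 3.58% of members, 2.80% of regions lost between days 1 and 6 and 0.900% of kept regions.

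Over all positions, AP-1 letters were more frequent in members than in kept regions, but distal regions alone gave a smaller gap. AP-1 (TGAGTCA, both strands) was found in the central 200 bp of 30.4% of members (29.5 to 31.4%), 10.9% of kept regions (10.4 to 11.4%) and 22.0% of all day 0 regions. Among distal regions the shares were 30.9% in members (29.9 to 31.9%), 28.3% in kept regions (26.9 to 29.6%) and 32.2% in all non-member day 0 regions (31.4 to 33.1%). The distal regions lost between days 1 and 6 held AP-1 more often, at 44.2% (42.2 to 46.3%), an interval well apart from that of the members. Regions are not replicates, and the intervals cover counting error only.

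AP-1 letters followed peak width as well. In the same 4 width classes, from narrow to wide, the share among distal members was 18.6%, 31.8%, 38.8% and 33.5%. Distal non-member regions held it in 14.2%, 26.1%, 39.2% and 34.2%, so the intervals lay apart, with members higher, in the narrower classes and overlapped in the wider ones. Distal regions lost between days 1 and 6 held it in 18.5%, 38.1%, 53.3% and 45.5%, with intervals above those of the members from 500 bp upward. Distal members with AP-1 had a median width of 503 bp and those without it 466 bp.

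The AP-1 matches sat at the centre of the members' peaks. Within 100 bp around the peak centre 20.3% of distal members held a match (19.4 to 21.2%), compared with 1.57% (1.31 to 1.87%) in a window of the same length 400 to 500 bp downstream on the plus strand. The ratio was 12.9 in members, 12.4 in regions lost between days 1 and 6 and 9.32 in kept regions. Matches were less concentrated at the centre for Tead, with 12.7% of distal members at the centre and 5.77% in the flank, and for Runx, with 5.29% and 2.36%. The Cebp motif (6.36% and 4.56%) and the Twist-type E-box (10.9% and 8.04%) were the least centred.

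**Figure D3:**
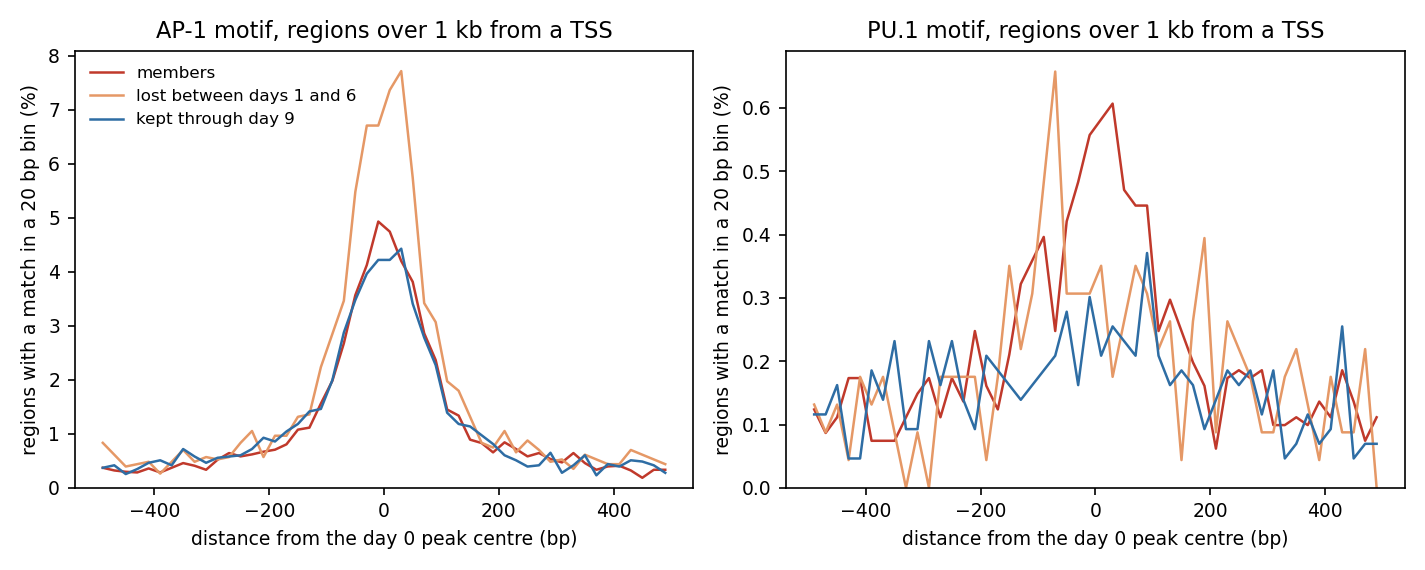
Share of distal regions (%) with a motif match in 20 bp bins, by distance from the day 0 peak centre (bp), for AP-1 (left) and the PU.1 motif (right) in members (red), regions lost between days 1 and 6 (orange) and regions kept through day 9 (blue). AP-1 rises at the centre in all 3 classes and highest in the orange one; for PU.1 the 100 bp around the centre held one in 2.59% of members and 1.18% of kept regions.

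Tead and Twist-type letters were about as frequent in distal members as in distal non-member regions, while Runx and Cebp letters were slightly more frequent, with intervals that did not overlap. Tead letters were found in 20.5% of distal members and 21.0% of the others, and the Twist-type E-box in 19.9% and 19.6%. Runx letters were found in 8.98% (8.36 to 9.62%) and 7.75% (7.29 to 8.22%), and Cebp letters in 11.95% (11.3 to 12.7%) and 10.55% (10.0 to 11.1%). Distal regions lost between days 1 and 6 held Runx letters in 9.42% (8.25 to 10.7%) and Cebp letters in 12.3% (11.0 to 13.7%). These intervals overlapped those of the members. Among motifs with a lower share in distal members than in distal kept regions were the CTCF core, at 0.631% against 4.73%, the GC box of Sp proteins (CCCCGCCC), at 0.854% against 4.89%, and the Klf motif (CCACACCC), at 1.26% against 4.59%. Of all distal day 0 regions, 2.75% held the CTCF core, 2.13% the GC box and 2.51% the Klf motif. Distal regions lost between days 1 and 6 were also below the kept regions, at 0.833%, 1.23% and 2.15%. The Oct motif ATGCAAAT was found in 0.755% of distal members and 1.60% of distal kept regions, and the Sox motif CCATTGT in 1.82% and 2.36%, against 0.976% and 2.02% of all distal day 0 regions. The GATA motif AGATAAG was held by 2.24% of distal members (1.93 to 2.59%) and 1.27% of the other distal regions (1.09 to 1.48%). In distal regions lost between days 1 and 6 it was 1.49% (1.03 to 2.08%), an interval that overlapped that of the members. At least 1 of the AP-1, Tead, Runx, Cebp and Twist-type motifs was present in all but 34.5% of distal members, and in all but 35.6% of the others.

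Among genes, *Zfp608* had the most members by nearest protein-coding TSS, 13 of its 31 day 0 regions. It was followed by *Basp1* (12 of 14), *Pde4d*, a cAMP phosphodiesterase (12 of 31), *Klf6*, a Krüppel-like factor (11 of 31) and *Lpp*, a protein of cell adhesions (11 of 26). The named genes were those ranked in the first 10 with ties, 13 in all, which also took in *Myc* (10 of 27), *Sash1* (10 of 16) and, with 9 members each, *Adgrl2*, *Klf4*, *Palld*, *Thbs1*, *Tnc* and *Zeb2*. Genes with many day 0 regions have more chances to hold members, so these counts are to be read beside the totals. The shares of *Zfp608* (41.9%), *Pde4d* (38.7%), *Klf6* (35.5%), *Lpp* (42.3%) and *Myc* (37.0%) were near the 38.6% of all distal day 0 regions that were members. Members had a nearest gene within 1000 kb in 8965 cases, spread over 5305 genes, of which 3339 had a single member.

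*Basp1*, which encodes a membrane-bound protein of growing cell processes, had the highest share among the named genes, with 85.7% of its day 0 regions being members. There were 34 day 0 peaks of any width assigned to it, and 8, 5, 7, 4, 4 and 5 in the libraries of days 1, 2, 3, 6, 9 and of ESCs. *Basp1* was named for its members, so the lower counts after day 0 are part of that choice. The members reached from 714 bp to 945011 bp from the TSS. The member at 714 bp lay 67 bp from a day 2 peak, and the one at 492037 bp, the widest with 593 bp, lay 88631 bp from its nearest later peak, in ESCs. The only other genes with at least 6 day 0 regions and 80% or more members were *Cacna1i* and *Rgs13*, with 6 of 6 each, *1700020N01Rik* and *Tlr4*, with 6 of 7 each, and *Fli1*, *Grb14* and *Nup35*, with 5 of 6 each. This list was made after values were seen. Of the 2634 genes with 4 or more day 0 regions, 42 had 80% or more members.

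**Figure D4:**
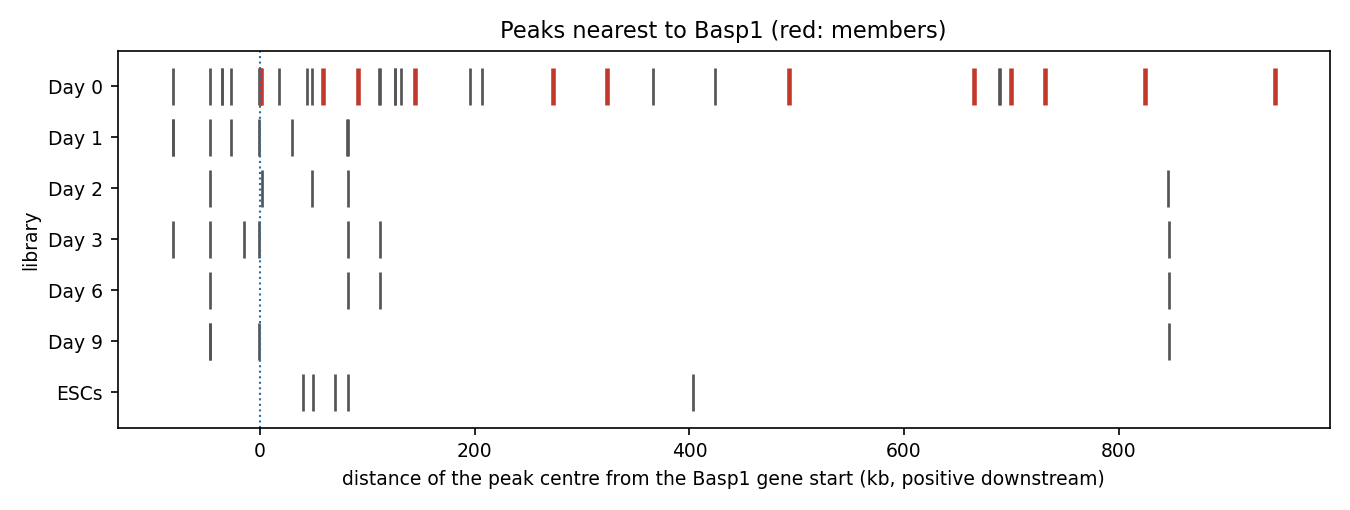
Peaks whose nearest protein-coding TSS is that of *Basp1*, by distance of the peak centre from the gene start (kb) and by library, with members in red. Day 0 has 34 peaks, 12 of them members, and the later libraries have 4 to 8. The gene was chosen for its members, so the lower later counts are part of that choice.

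*Klf4* and *Myc*, which are also carried by the transgene, had 9 of 17 and 10 of 27 day 0 regions among the members. Peaks assigned to *Klf4* numbered 32 on day 0 and 12, 6, 13, 8, 7 and 7 on days 1, 2, 3, 6, 9 and in ESCs. Those of *Myc* numbered 53, and then 29, 14, 29, 28, 17 and 10. Both genes were named for their members, so lower counts after day 0 are part of that choice. The widest *Klf4* member was 735 bp wide, chr4:55541421-55542155, in intergenic DNA 8954 bp from the TSS, and the nearest peak of any later library was 8151 bp away on day 1. The 10 *Myc* members lay 12223 to 902467 bp from the TSS, 6 of them in annotated introns, and 3 held AP-1 letters. *Palld*, which encodes an actin-binding scaffold, had 9 of 14 day 0 regions among the members, all 9 in annotated introns, and 3 held AP-1 letters. *Zeb2*, a repressor of epithelial genes that was also named for its members, had 30 peaks on day 0 and 14, 7, 14, 12, 7 and 1 in the other libraries.

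Matrix genes gave the most members of any list, 92 of 261 day 0 regions (35.2%, interval 29.5 to 41.4%). *Thbs1*, which encodes thrombospondin, had 9 of 21 and *Tnc*, which encodes tenascin, 9 of 16. *Col1a1* and *Col1a2*, the chains of type I collagen, had 4 of 9 each, *Dcn* had 5 of 8 and *Fbn2* 5 of 7. For *Tnc*, also named for its members, peaks numbered 31 on day 0 and 17, 9, 12, 9, 8 and 6 in the following libraries. The share of the list was near that of all distal day 0 regions, of which 38.6% were members, since 89 of its 212 distal regions (42.0%, 35.3 to 48.9%) were members. Counted in the gene body with 10 kb on both sides, the list had 22.9%.

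Most gene lists lay near the share of all day 0 regions or of all distal ones. Of the 21 lists, 16 had an interval that held the 26.4% of all day 0 regions and 19 one that held the 38.6% of distal regions. The fibroblast transcription factors had 53 of 183 regions among the members, with *Zeb2* (9 of 18), *Ebf1* (5 of 12) and *Nr2f2* (5 of 14) leading. The TGF-beta and BMP genes had 53 of 177, with *Smad7*, an inhibitor of the pathway, at 6 of 19 and *Inhba* at 6 of 15. AP-1 and ATF genes had 23 of 70, with *Atf3* at 5 of 9 and *Fos* and *Jun* at 3 of 10 each. Runx, Tead, Cebp and Srf factors had 43 of 130, with *Runx1* at 7 of 19, and growth factors and their receptors had 60 of 192, with *Ccn2*, a Yap target, at 5 of 9. Inflammatory and interferon genes had 46 of 141, with *Tlr4*, the lipopolysaccharide receptor, at 6 of 7, *Il1r1* at 5 of 10 and *Il1rl1* at 4 of 6. Genes of p53, the cell cycle and senescence had 20 of 66, with *Ccnd2* at 4 of 5, epithelial genes had 10 of 22, with *Cdh3* at 3 of 3, and *Hox* genes had 2 of 16. The share of the p53, cell cycle and senescence genes was 30.3%, and 11.4% with regions counted in the gene body with 10 kb on both sides.

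Contractile genes had fewer members among distal regions, and ribosomal protein genes among all regions. Contractile genes had 22 of 114 (19.3%, 12.5 to 27.8%) in all, an interval that holds the 26.4%, and 16 of 76 distal regions (21.1%, 12.5 to 31.9%), below the 38.6% of distal regions. Ribosomal protein genes had 6 of 56 (10.7%, 4.04 to 21.9%), below the 26.4% of all day 0 regions, and 6 of 27 distal ones (22.2%, 8.62 to 42.3%), an interval that holds the 38.6%. Pluripotency genes had 26 of 61 (42.6%, 30.0 to 55.9%), with *Sox2* at 4 of 5 and *Klf5* at 4 of 6. Their distal share, 49.0% (34.8 to 63.4%), had an interval that held the 38.6%. Counting in the gene body with 10 kb on both sides gave 13.0% of 23 regions. No share over all genes counted in that way is given, so this value is not set against the 26.4%. The widest *Sox2* member was 539 bp wide, 183019 bp from the TSS, and its nearest later peak was 10462 bp away, on day 3.

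Members near promoters were few, and many of their genes had a peak near a TSS in a later library. Within 1000 bp of a protein-coding TSS lay 449 members, or 3.97% of the 11318 day 0 regions there. In 283 of these (63.0%) a peak lay within 1000 bp of a TSS of the same gene in at least 1 later library. Such a peak can lie beside the member itself, as at *S100a13*, where a day 6 peak was 124 bp away. No share over all genes pooled across the later libraries is given. In the ESC library by itself, 49.2% of all protein-coding genes had a TSS peak, so the 63.0% is no trait of these genes. The median GC content of the promoter members was 52.5%, compared with 66.0% for the other promoter regions, and their median width 460 bp compared with 682 bp. Among the widest were those at *Slc15a3*, a lysosomal peptide and histidine transporter (1125 bp), *Synpo* (822 bp), *Wnt5b*, a Wnt ligand (785 bp), *Ppfia4* (781 bp) and *Pou2f2*, a lymphoid Oct factor (767 bp). The *Slc15a3* member had its nearest later peaks 2725 bp away on day 3 and 5399 bp away in ESCs.

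Several promoter members belonged to genes of macrophages, which are myeloid cells present in embryos. *C1qb*, a complement subunit, had a 685 bp member over its TSS (chr4:136885992-136886676), and its nearest later peak was 7132 bp away. *Tyrobp*, a signalling adaptor of myeloid cells, had 3 of 3 day 0 regions among the members, and *Spi1*, which encodes PU.1, the master factor of macrophages, had 1 of 2. Of the macrophage and blood markers 12 of 20 regions were members (60.0%, 36.1 to 80.9%), against 26.4% of all day 0 regions. Of their distal regions 9 of 12 were members (75%, 42.8 to 94.5%), against 38.6% of all distal ones. These members belonged to only 6 genes, so the regions are not independent of one another. Some lay far from the gene, such as a *Ptprc* member 423146 bp from the TSS. The share of the list was 31.2% when regions were instead counted in the gene body with 10 kb on both sides. A further 20 myeloid genes, chosen after the values were seen and so no independent evidence, had 15 of 30. Of the 11 markers, 7 (63.6%) had a peak within 1000 bp of a TSS on day 0 and 4, 2, 2, 2, 1 and 1 in the later libraries. Of all protein-coding genes, 58.4% had one on day 0 and 49.2% in ESCs. Among the 7, *Spi1* and *Tyrobp* (28.6%) had it on day 0 alone, against 3.12% of all protein-coding genes with a day 0 one. *Ptprc*, *Adgre1*, *Cd52* and *Gata1* had no TSS peak in any library, and *Csf1r* had one on days 0 to 9. *Cd68*, *Itgam*, *Lyz2* and *Tal1* had one on day 0 and in at least 1 later library. The part of these cells in the members was not tested.

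The PU.1 motif was looked at after these genes were seen. GAGGAAGT (both strands) was found in 4.38% of distal members (3.95 to 4.85%), 3.33% of distal regions lost between days 1 and 6 (2.63 to 4.15%), 2.22% of distal kept regions (1.81 to 2.71%) and 2.57% of all other distal regions (2.30 to 2.85%). Around the peak centre it was found in 2.59% of distal members and in the flank in 0.619%, a ratio of 4.18. In promoter members the share was 6.24% (4.18 to 8.89%), compared with 1.78% in the other promoter regions. These groups also differed in base composition, with a median GC content of 52.5% and 66.0%, and what that adds to the gap was not tested. The Ets motif CCGGAAGT of the fixed list, which shares the letters GGAAGT, went the other way. It was found in 0.211% of distal members, 0.398% of the other distal regions and 0.672% of distal kept regions. Which protein bound at such letters was not tested. The PU.1 motif was thus present in a small part of the members. It was found in 3.005% of distal members with AP-1 (2.37 to 3.75%) and in 4.999% of those without (4.44 to 5.60%). The widest promoter member with the motif that holds no annotated UTR base in the window lay near *Gpr35*, which encodes a G-protein-coupled receptor (chr1:92972074-92972273, mm10, plus strand), and its PU.1 letters are in capitals.
Gpr35: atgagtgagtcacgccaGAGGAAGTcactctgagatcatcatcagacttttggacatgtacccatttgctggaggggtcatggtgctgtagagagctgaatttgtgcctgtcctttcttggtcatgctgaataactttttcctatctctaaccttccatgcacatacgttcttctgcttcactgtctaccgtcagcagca

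Regions of markers of other cell types that MEF cultures could hold were set beside the 26.4% of all day 0 regions that were members. Endothelial markers had 14 of 37 regions among the members (37.8%, 22.5 to 55.2%). *Cdh5* and *Pecam1* had a TSS peak on day 0 alone, while *Erg* had one in all 7 libraries. Adipocyte markers had 9 of 17 (52.9%, 27.8 to 77.0%), with *Cd36* at 3 of 3. Skeletal muscle markers had 5 of 10 (50%, 18.7 to 81.3%), with *Pax3* at 4 of 4. Neural and glial markers had 8 of 29 (27.6%, 12.7 to 47.2%), and cartilage and bone markers 13 of 34 (38.2%, 22.2 to 56.4%). Of these intervals only the adipocyte one lay above the 26.4%. The distal adipocyte share, 60% (32.3 to 83.7%), had an interval that held the 38.6% of distal regions. Among markers with a day 0 TSS peak, it was on day 0 alone for 2 of 6 endothelial and 1 of 5 adipocyte markers. It was so for the 1 muscle marker, 1 of 6 neural and 0 of 6 cartilage markers, against 3.12% of all protein-coding genes. The same held for 1 of 6 ESC markers, a share also above the 3.12%, and 0 of 11 MEF markers. Of the 12 MEF markers, 11 had a TSS peak on day 0, all but *Prrx1*, and 5 in ESCs. Of the 12 ESC markers 3, *Pou5f1*, *Zfp42* and *Fgf4*, had a TSS peak in the ESC library, *Nanog*, *Sox2* and *Esrrb* had none there, and 6 had one on day 0. Members made up 16 of 57 regions of the MEF markers and 9 of 20 of the ESC markers. In the gene body with 10 kb on both sides the shares were 12.5% for skeletal muscle, 13.8% for MEF and 22.2% for ESC markers, against 50%, 28.1% and 45% by nearest TSS.

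**Figure D5:**
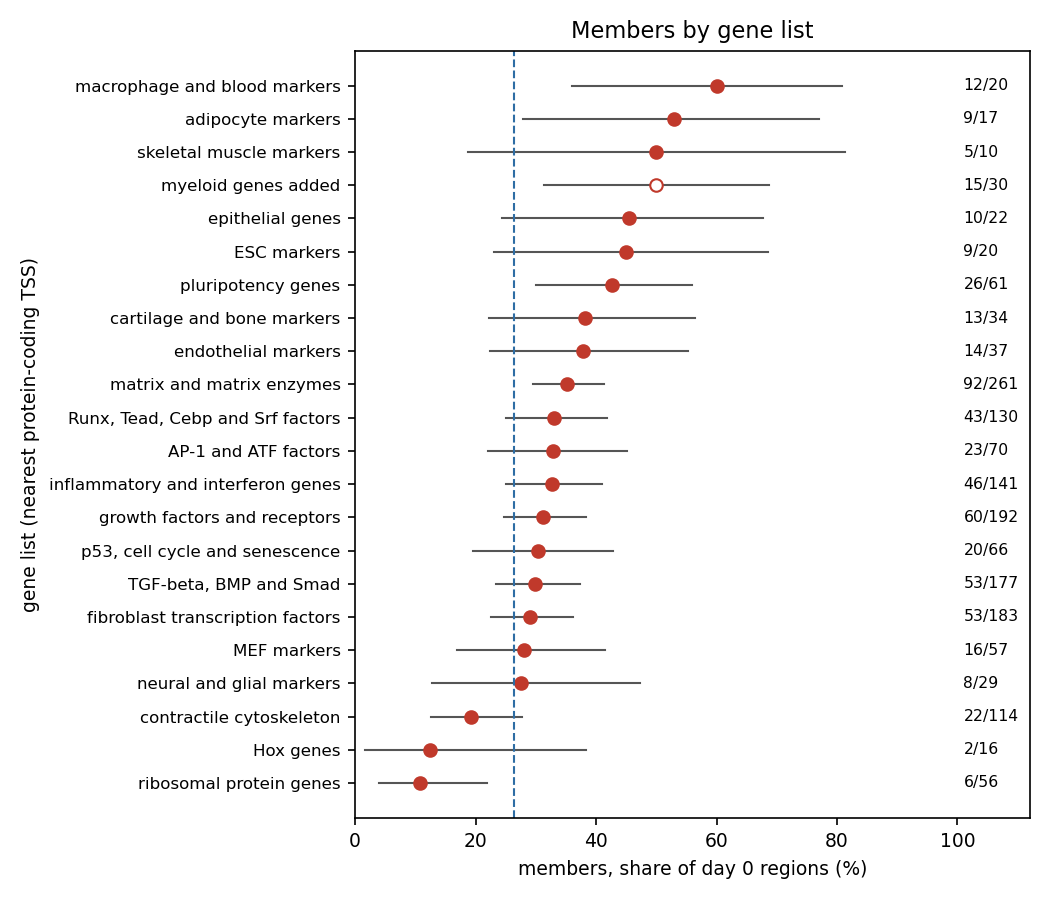
Share of day 0 regions that are members (%) for each gene list, by nearest protein-coding TSS, with exact 95% intervals, the counts at the right and the 26.4% of all day 0 regions as a dashed line. The open circle is the list added after the values were seen. Macrophage and blood markers are highest at 60.0% and ribosomal protein genes lowest at 10.7%.

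The widest member, 1367 bp at chr16:21318150-21319516, was intergenic, 103601 bp from the *Vps8* TSS, with the nearest later peaks 2745 to 2824 bp away on days 1 to 9 and 7065 bp away in ESCs. The *Ninj2* member, 1105 bp wide in an intron, had later peaks 782 to 838 bp away on days 1 to 9. The *Piezo1* member, 944 bp wide and 4632 bp upstream of the gene of a mechanically gated channel, in an intron of another annotated gene, had its nearest later peak 1897 bp away, in ESCs. Of the 12 widest members, 6 were in introns, 4 intergenic and 2 within 1000 bp of a TSS.

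The distance from members to later peaks is bounded by the selection and by the length of each peak list, and is given as a description. A peak lay within 1000 bp of 5.57% of members on day 1 and of 2.47% in ESCs. The median distance was 13712 bp on day 1 and 29320 bp in ESCs, and 493 members (5.46%) had a later peak within 500 bp in at least 1 library.

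Members had members as nearest neighbours more often than other regions did. The nearest day 0 region of 300 bp or wider was a member for 31.6% of members (30.7 to 32.6%) and 24.3% of other regions (23.8 to 24.9%). Among distal regions alone the shares were 41.5% (40.4 to 42.6%) and 35.7% (34.8 to 36.5%). By chromosome the share of members ranged from 21.1% of day 0 regions on chromosome 11 to 30.5% on chromosome 13, and was 21.4% on chromosome X (18.4 to 24.7%).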

How the data were processed

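The 7 ATAC-seq peak lists were used as deposited. Per the labels and the methods, the authors used Trimmomatic for trimming, Bowtie2 for mapping to mm10 and Samtools fixmate, removed duplicates and downsampled all samples to an unstated common depth with Picard, and called peaks per library with MACS2. The deposited files hold the start and end positions of peaks and no score or signal, so the depth behind a peak is unknown and no depth interval can be given.

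Peaks that touched or overlapped were joined into regions. The joining was checked against bedtools 2.31.1 and recovered 100% of the calls in 2000 simulated day 0 peaks. Motifs, fixed in a list of 25 with PU.1 added later, were searched on both strands of the central 200 bp with Python 3.11.15, pysam 0.24.0 and the GRCm38.p6 sequence, the build of mm10. Genes and TSSs came from GENCODE M21, and each region was assigned to the nearest protein-coding TSS within 1000 kb. Shares carry exact (Clopper-Pearson) 95% intervals computed with scipy 1.17.1, for counting error only. Because no group had a replicate, p-values were not computed. Named were the 12 widest members, the 12 widest near a protein-coding TSS, the 10 genes with most members with ties, and up to 3 widest members per gene list; printed sequences were the widest eligible ones without annotated UTR bases. Some members that this rule names are not reported here. Members, motifs and gene lists were chosen with earlier results of these data known.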

Additional observations from a re-analysis of the deposited data

How the results depend on the processing

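No paired analysis was possible because no group has more than 1 library. The number of members (9031) stayed within 1.5 times under the alternatives run, from 6717 with a 400 bp minimum to 13127 when only later peaks of 300 bp or wider counted, and from 9159 to 10333 without each later library in turn, except for 3841 with a 500 bp minimum. The share of members within 1000 bp of a TSS (10.5%) was 17.8% within 2500 bp, 4.97% for protein-coding TSSs and 9.54% without members that had a later peak within 500 bp. The median GC content (46.5%) was 45.5% over the whole peak. The AP-1 share (30.4%) was 38.9% over the whole peak, 34.7% with a 400 bp minimum, 17.99% from 300 to under 400 bp, 31.5% from 400 to under 500 bp and 37.1% at 500 bp or wider. Counting regions in the gene body with 10 kb on both sides gave 21.0% for fibroblast transcription factors, 22.9% for matrix genes, 21.1% for TGF-beta genes, 24.4% for growth factors, 23.4% for inflammatory genes, 11.4% for genes of p53, the cell cycle and senescence, 13.0% for pluripotency genes, 12.5% for skeletal muscle markers, 31.2% for macrophage and blood markers, 13.8% for MEF markers and 22.2% for ESC markers. The share with a member as nearest neighbour (31.6%) was 17.7% among day 0 regions of any width. Of the 22 gene lists, the added myeloid one included, 11 stayed within the limits set when counted in the gene body with 10 kb on both sides. Among these were endothelial markers (45.8%, from 37.8%), Runx, Tead, Cebp and Srf factors (31.8%, from 33.1%) and contractile genes (13.2%, from 19.3%). For the lists that moved, the share thus depends on how regions are tied to genes. Of 87 alternatives in all, 52 stayed within the limits set and 35 moved; the cause was not tested. Read depth is unknown.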
